A study of Mus musculus with 6 samples.

Results

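The 9 transcription factor genes described here are those with which the embryonic brain sets up and reads the border between midbrain and hindbrain: *En1*, *En2*, *Pax2*, *Pax5*, *Pax8*, *Otx2*, *Gbx2*, *Lmx1a* and *Lmx1b*. They were chosen by symbol, by a rule that uses no measured value but was set with earlier results of these data known, and are 9 of the 24421 genes in the count table. All 9 passed the filter on low counts, which kept 15584 genes for testing. The question for each was whether its transcript level in the head of *Snrpb* ncc+/- mutants differed from that of stage-matched wild-type (WT) heads at an age when the mutants still look normal.

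RNA was taken from heads of E9.0 mouse embryos and sequenced after removal of ribosomal RNA. There were 3 WT libraries and 3 *Snrpb* ncc+/- (mutant) libraries, each a pool of 2 heads of embryos from different litters with matched somite numbers, on a mixed CD1 and C57BL/6J background (C57BL/6 in the labels). The mutants carried the Wnt1-Cre2 transgene and 1 copy of *Snrpb* with loxP-flanked exons. *Snrpb*, which encodes the SmB core proteins of the spliceosome, is thus reduced to 1 functional copy where *Wnt1*-driven Cre is active, in neural tube and crest. The *Snrpb* genotype of the rest of the head is not altered, though its expression of other genes need not be unaffected. WT embryos are labelled *Snrpb* +/+, and the labels do not say whether they carried the Cre transgene. Because a pool holds 2 embryos, a replicate is the mean of 2 heads and the spread between single embryos was not measured.

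The midbrain-hindbrain boundary, or isthmus, forms where the *Otx2* territory of the forebrain and midbrain meets the *Gbx2* territory of the anterior hindbrain, since each of these homeodomain proteins represses the gene of the other. Cells on both sides then make the paired-box factors Pax2, Pax5 and Pax8 and the Engrailed proteins. Lmx1b is needed for the expression of *Wnt1* on the midbrain side and of *Fgf8* on the hindbrain side. These signals pattern the tectum and cerebellum, and the factors and signals keep each other active after the border has formed.

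The libraries held between 36378803 and 74909774 counted reads, and TMM normalization factors lay between 0.991 and 1.02. *Snrpb* itself was at 430, 438 and 414 CPM (a gene's counts scaled to the normalized size of its library) in WT 1, 2 and 3 and at 436, 412 and 430 CPM in mutants 1, 2 and 3. Its log2 fold change was -0.00 ± 0.04 (SE, 95% interval -0.09 to 0.09), so its summed count did not separate the groups and does not check the genotype labels. Neural markers were abundant in every library, and the 5 trunk *Hox* genes of the marker list summed to at most 0.26 CPM. In a whole head, fewer cells that express a gene and less RNA per cell cannot be told apart.

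No change was detected in any of the 9 genes between mutant and WT heads. With the quasi-likelihood test of edgeR and Benjamini-Hochberg adjustment over the 15584 genes, 0 of the 9 passed an adjusted *P* of 0.05, beside 1 gene, or 0.00642%, of all tested. With DESeq2, 0 of the 9 passed, beside 0.398% of the genes that tool tested. At an unadjusted *P* under 0.05 in edgeR the count was again 0 of 9, beside 8.43% of all genes, and the 3 mutant libraries lay wholly above or below the 3 WT libraries for 0 of 9, beside 15.2% of all genes. The fitted change was above 0 for 4 of the 9 genes (*Pax2*, *Pax8*, *Gbx2* and *Lmx1a*), beside 50.2% of all genes. The median log2 fold change of the 9 was -0.01, beside 0.00 for all genes tested.

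**Figure D1:**
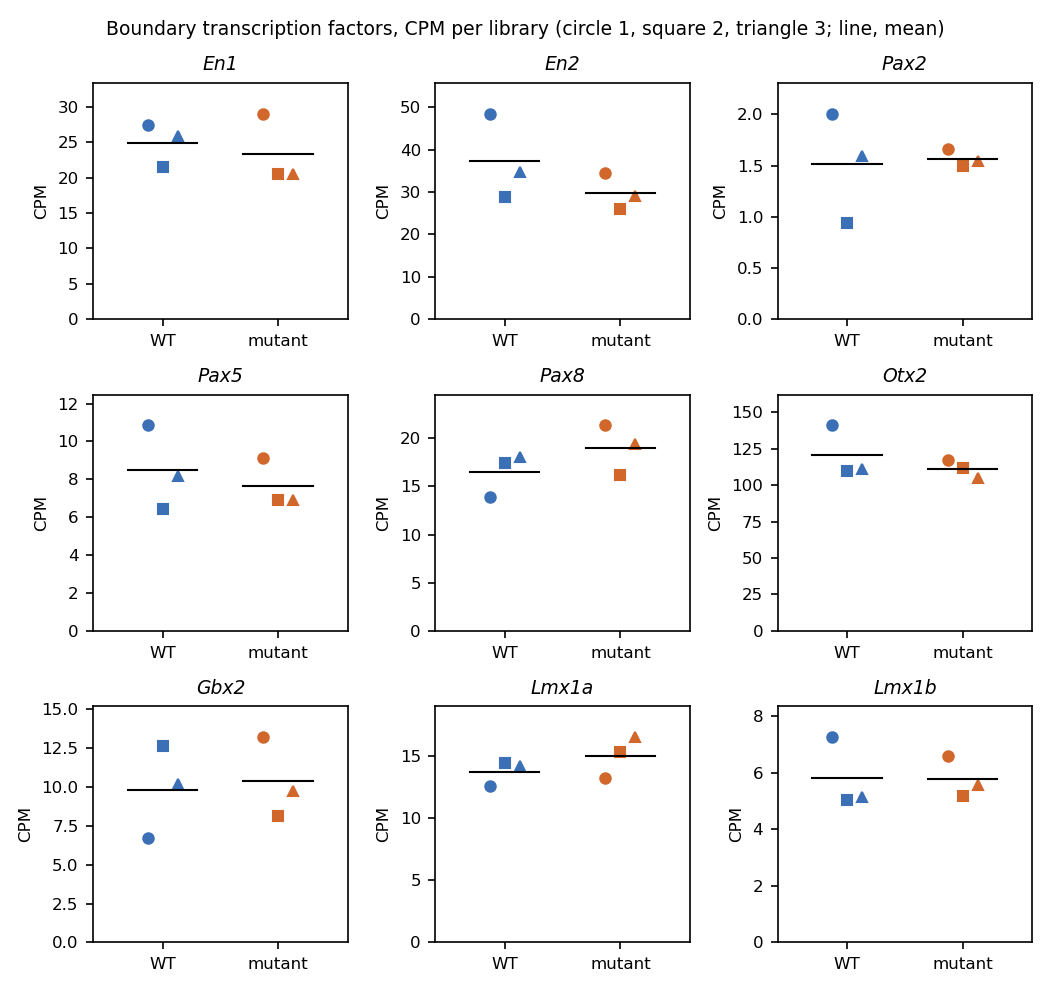
Level of each boundary transcription factor in CPM (y axis, from 0) in the 3 WT libraries (blue) and the 3 mutant libraries (orange). Circles, squares and triangles are libraries 1, 2 and 3 of a group and black lines are group means. The groups overlap in all 9 panels, and WT 1 is the highest of the 6 libraries for *En2*, *Pax2*, *Pax5*, *Otx2* and *Lmx1b* and the lowest for *Pax8*, *Gbx2* and *Lmx1a*.

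The genes were first placed on a common scale of CPM per kilobase of exon, to allow for their different lengths. Lengths join all exons annotated in Gencode M21, so the order of genes depends on that annotation. The *Gbx2* count may also hold reads of an overlapping transcript. *Otx2* had the highest level in WT heads, at 28.6 ± 4.21 CPM per kb (SD, n = 3). *En2* followed at 10.5 ± 2.85 and *En1* at 9.50 ± 1.17 CPM per kb, and the ranges of these Engrailed genes overlapped. *Gbx2* at 4.52 ± 1.36 and *Lmx1a* at 4.05 ± 0.293 CPM per kb also overlapped with each other.

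*Pax8* at 2.72 ± 0.370 CPM per kb stood below *Lmx1a* without overlap. *Lmx1b* at 1.19 ± 0.258 and *Pax5* at 0.958 ± 0.251 CPM per kb overlapped. *Pax2* was lowest, at 0.280 ± 0.0996 CPM per kb, below every *Pax5* value in WT. In mutants the order was the same except that *En1*, at 8.89 ± 1.87 CPM per kb, came before *En2*, at 8.41 ± 1.21 CPM per kb, with overlapping ranges.

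*Otx2*, on chromosome 14 (mm10, 48657677 to 48673819, minus strand), encodes the homeodomain protein of the forebrain and midbrain. It was at 141, 110 and 111 CPM in WT 1, 2 and 3 and at 117, 112 and 105 CPM in mutants 1, 2 and 3. WT 1 stood above the other 5 libraries, which lay close together and were mixed between the genotypes. Between the groups the log2 fold change was -0.12 ± 0.10 (SE, 95% interval -0.36 to 0.13, edgeR adjusted *P* = 0.798). This interval, from 21.9% lower to 9.14% higher, was among the narrower ones of the 9 genes.

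*Gbx2*, on chromosome 1 (89927956 to 89931179, minus strand), encodes the opposing homeodomain protein of the anterior hindbrain. Its levels were 6.73, 12.6 and 10.2 CPM in WT 1, 2 and 3 and 13.2, 8.14 and 9.72 CPM in mutants 1, 2 and 3. The lowest library was a WT and the highest a mutant, yet WT 2 and mutant 1 were close to each other. The fitted log2 fold change was 0.05 ± 0.27 (SE, 95% interval -0.61 to 0.72, adjusted *P* = 0.974), the widest interval of the 9 genes. In Gencode M21, 43.5% of the exon bases of *Gbx2* overlap a transcript on the other strand, D130058E05Rik, which has no row in the count table. Whether reads were counted by strand is not given in the sources used here, so reads of that transcript may be part of the *Gbx2* count.

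Within a library the ratio of *Otx2* to *Gbx2* counts does not depend on the normalization. It was 20.96, 8.68 and 10.9 in WT 1, 2 and 3 and 8.83, 13.7 and 10.8 in mutants 1, 2 and 3. WT 1 was far above the rest, and the other WT libraries lay within the mutant range or just below it. On the log2 scale the ratio was 3.65 ± 0.66 (SD, n = 3) in WT and 3.45 ± 0.32 in mutants, a difference of -0.20 that is smaller than the SD of either group.

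Among the Engrailed genes, whose homeodomain proteins mark the midbrain and anterior hindbrain, *En1* lies on chromosome 1 (120602418 to 120607992, plus strand). It was at 27.4, 21.5 and 25.8 CPM in WT 1, 2 and 3 and at 29.0, 20.5 and 20.5 CPM in mutants 1, 2 and 3. Mutants 2 and 3 were the lowest of the 6 libraries and mutant 1 was the highest. Over all libraries its log2 fold change was -0.10 ± 0.16 (SE, 95% interval -0.49 to 0.29, adjusted *P* = 0.894). Without mutant 1, both mutant libraries were below all WT libraries and the log2 fold change was -0.28 (unadjusted *P* = 0.0294, adjusted *P* = 0.677, edgeR). In that fit 7.12% of all genes had an unadjusted *P* under 0.05. The share of all genes whose groups do not overlap was not computed with a library left out.

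*En2*, on chromosome 5 (28165694 to 28172166, plus strand), had the largest fitted change of the 9 genes. It was at 48.4, 28.7 and 34.7 CPM in WT 1, 2 and 3 and at 34.4, 25.9 and 29.0 CPM in mutants 1, 2 and 3. All mutant libraries were below WT 1 and WT 3, but mutants 1 and 3 were above WT 2. The log2 fold change was -0.32 ± 0.22 (SE, 95% interval -0.86 to 0.22, unadjusted *P* = 0.189, adjusted *P* = 0.726), that is, 20.1% lower with an interval from 45.0% lower to 16.2% higher. Without WT 1 the log2 fold change was -0.10. Without WT 2 it was -0.49 (unadjusted *P* = 0.0353, adjusted *P* = 0.400, edgeR), in a fit where 11.4% of all genes had an unadjusted *P* under 0.05. All mutant libraries were then below the remaining WT libraries. The share of all genes with groups apart was not computed for this setting.

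The ratio of *En1* to *En2* counts was 0.567, 0.749 and 0.745 in WT 1, 2 and 3 and 0.844, 0.791 and 0.708 in mutants 1, 2 and 3. WT 1 was the lowest and mutant 3 fell among the WT values. The log2 ratio was higher in mutants by 0.19, with SDs of 0.23 in WT and 0.13 in mutants.

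**Figure D2:**
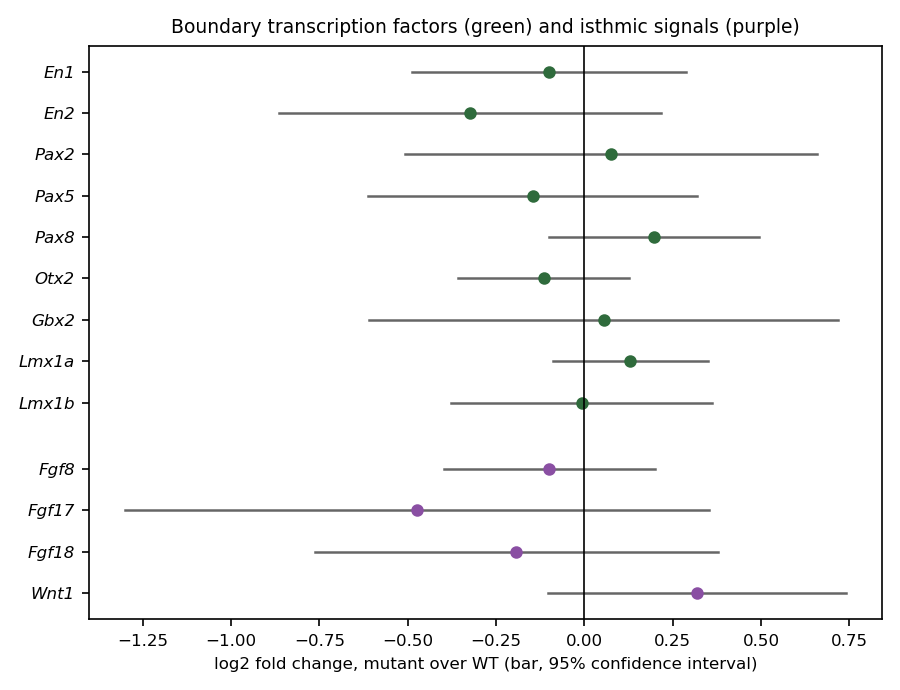
Log2 fold change of mutant over WT (x axis) for the 9 boundary transcription factors (green) and the 4 signals of the isthmus (purple), with 95% confidence intervals from edgeR as bars. All 13 intervals include 0, from the narrow ones of *Lmx1a* and *Otx2* to the wide ones of *Gbx2*, *Pax2* and *Fgf17*.

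Of the paired-box factors, Pax2 is the earliest in the isthmus and is also made in the otic and optic primordia. *Pax2*, on chromosome 19 (44756045 to 44837871, plus strand), had only 55 to 114 counts per library. Its levels were 2.01, 0.937 and 1.59 CPM in WT 1, 2 and 3 and 1.66, 1.50 and 1.55 CPM in mutants 1, 2 and 3. The mutant values all lay inside the WT range, whose lowest library, WT 2, rests on the 55 counts. Mutants and WT differed by 0.08 ± 0.26 on the log2 scale (SE, 95% interval -0.51 to 0.66, adjusted *P* = 0.954). The counting error alone was 12.0%, 9.37% and 9.85% in mutants 1, 2 and 3, more than the coefficient of variation of 5.15% among them.

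*Pax5*, on chromosome 4 (44524757 to 44710487, minus strand), acts after *Pax2* in the midbrain and isthmus. It was at 10.8, 6.44 and 8.16 CPM in WT 1, 2 and 3 and at 9.12, 6.92 and 6.92 CPM in mutants 1, 2 and 3. The WT libraries held both the highest and the lowest value. A log2 fold change of -0.15 ± 0.20 was fitted (SE, 95% interval -0.61 to 0.32, adjusted *P* = 0.874).

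*Pax8*, on chromosome 2 (24420560 to 24475599, minus strand), is made in the isthmus and also in the otic and thyroid primordia. It was at 13.9, 17.5 and 18.0 CPM in WT 1, 2 and 3 and at 21.3, 16.1 and 19.4 CPM in mutants 1, 2 and 3. Mutants 1 and 3 were the highest libraries, while mutant 2 lay between WT 1 and WT 2. A log2 fold change of 0.20 ± 0.13 resulted (SE, 95% interval -0.10 to 0.49, unadjusted *P* = 0.165, adjusted *P* = 0.706), the lowest unadjusted *P* of the 9 genes.

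*Pax8* also supplied most of the reads of the subfamily. It made up 52.0%, 70.3% and 64.9% of the *Pax2*, *Pax5* and *Pax8* counts in WT 1, 2 and 3 and 66.4%, 65.7% and 69.6% in mutants 1, 2 and 3. The share of *Pax2* was between 3.77% and 7.49% over all 6 libraries. The ratio of *Pax2* to *Pax5* counts differed by 0.25 on the log2 scale (mutant minus WT) and that of *Pax2* to *Pax8* by -0.08, and the groups overlapped for both. The otic vesicle is another source of *Pax2* and *Pax8*. The 7 genes of the otic marker list summed to 60.0 CPM in WT 1, where *Pax8* was lowest, and to between 76.3 and 80.3 CPM in the other 5 libraries, but most of this sum came from *Eya1* and *Foxi2*, which other head tissues also express. The more restricted *Oc90*, *Hmx2* and *Hmx3* were at most 0.211, 0.903 and 1.76 CPM in any library. The part of otic cells in the *Pax8* values was not tested.

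The LIM-homeodomain genes mark the isthmus and the dorsal and ventral midlines of the midbrain and hindbrain. *Lmx1b*, on chromosome 2 (33560965 to 33640511, minus strand), was at 7.28, 5.04 and 5.16 CPM in WT 1, 2 and 3 and at 6.61, 5.20 and 5.58 CPM in mutants 1, 2 and 3. Each group had a library 1 above the others, and the group means were 5.83 and 5.79 CPM. The fitted change was -0.01 ± 0.16 log2 units (SE, 95% interval -0.38 to 0.36, adjusted *P* = 0.995).

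*Lmx1a*, on chromosome 1 (167689237 to 167848741, plus strand), is the gene of the roof plate and of the dopaminergic floor plate. Its levels were 12.6, 14.5 and 14.2 CPM in WT 1, 2 and 3 and 13.2, 15.3 and 16.5 CPM in mutants 1, 2 and 3. Mutants 2 and 3 were the highest libraries, and mutant 1 was lower than WT 2 and WT 3. The log2 fold change was 0.13 ± 0.10 (SE, 95% interval -0.09 to 0.35, adjusted *P* = 0.743). Its interval, from 5.95% lower to 27.3% higher, was the narrowest of the 9 genes on the log2 scale. The ratio of *Lmx1b* to *Lmx1a* counts was 0.577, 0.349 and 0.365 in WT 1, 2 and 3 and 0.50, 0.339 and 0.338 in mutants 1, 2 and 3, and the difference of -0.12 in the log2 ratio was smaller than the SD of either group.

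WT 1 was the extreme library, highest or lowest of 6, for 8 of the 9 genes, with *En1* the exception. How often WT 1 was extreme over all tested genes was not computed, so this count is not read as a trait of the 9. Relative to each gene's mean over the 6 libraries, WT 1 was higher by 0.56 for *En2*, 0.45 for *Pax5*, 0.41 for *Pax2*, 0.34 for *Lmx1b* and 0.29 for *Otx2* on the log2 CPM scale. It was at -0.55 for *Gbx2*, -0.34 for *Pax8* and -0.18 for *Lmx1a*. Mutant 1 had the highest *En1*, *Pax8* and *Gbx2*, with departures of 0.28, 0.28 and 0.43. WT 2 had the lowest *Pax2*, *Pax5* and *Lmx1b*. The SD over the 6 libraries was between 0.14 (*Lmx1a*) and 0.37 (*Gbx2*) log2 units for the 9 genes, beside a median of 0.11 for all genes tested.

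**Figure D3:**
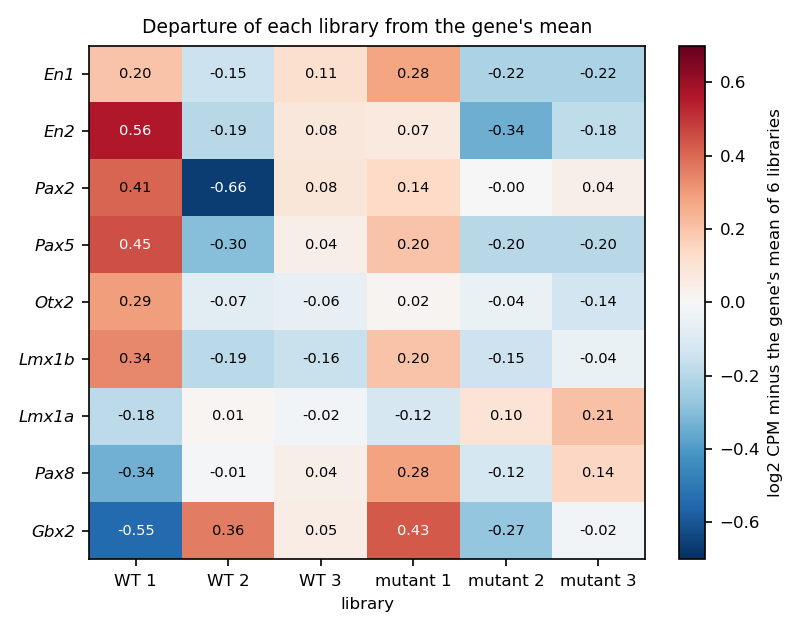
Departure of each library (x axis) from the gene's mean of 6 libraries, in log2 CPM (colour and printed value), for the 9 genes (rows). The column of WT 1 holds 0.56 for *En2* and -0.55 for *Gbx2*, and WT 2 has the lowest single value, -0.66 for *Pax2*.

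Markers of the neighbouring territories also stood apart in WT 1. The 11 hindbrain genes, among them rhombomere *Hox* genes and *Egr2*, summed to 34.2 CPM in WT 1, to 77.2 and 58.4 CPM in WT 2 and 3, and to 76.5, 60.4 and 74.8 CPM in mutants 1, 2 and 3. The 5 neural progenitor markers summed to 606 CPM in WT 1 and to between 463 and 514 CPM in the others. Forebrain genes summed to 161 CPM in WT 1 and to between 111 and 130 CPM in the others, and the 4 cardiac muscle genes to 2.33 CPM in WT 1 and to between 11.1 and 38.8 CPM in the others. The library with the least hindbrain and cardiac transcript was thus also the library with the lowest *Gbx2* and the highest *Otx2* and *En2*. The part of these tissues in the values of the 9 genes was not tested.

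**Figure D4:**
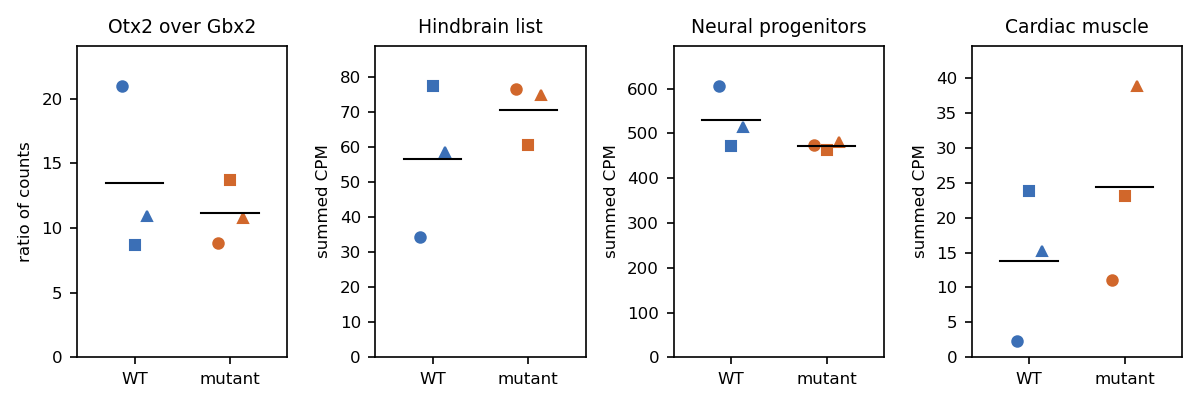
From left to right, the ratio of *Otx2* to *Gbx2* counts, and the summed CPM of the hindbrain list, the neural progenitor markers and the cardiac muscle markers, in the 3 WT (blue) and 3 mutant libraries (orange), with circles, squares and triangles for libraries 1, 2 and 3 and lines for means. WT 1 is the highest library for the ratio (20.96) and the progenitors (606 CPM) and the lowest for the hindbrain (34.2 CPM) and cardiac lists (2.33 CPM).

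Without WT 1 the count of genes among the 9 that passed an adjusted *P* of 0.05 was still 0, and 6 of the 9 had a fitted change above 0. The log2 fold changes of *Pax5*, *Otx2* and *Lmx1b* then turned to 0.06, 0.01 and 0.17 and that of *Gbx2* to -0.16. *Lmx1b* was then higher in all mutant than in both WT libraries, and the share of all genes with groups apart was not computed for this setting. *Pax2* had a log2 fold change of 0.34 without WT 1 and of -0.20 without WT 2. The directions of *En1*, *En2*, *Pax8* and *Lmx1a* were the same with each library left out.

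**Figure D5:**
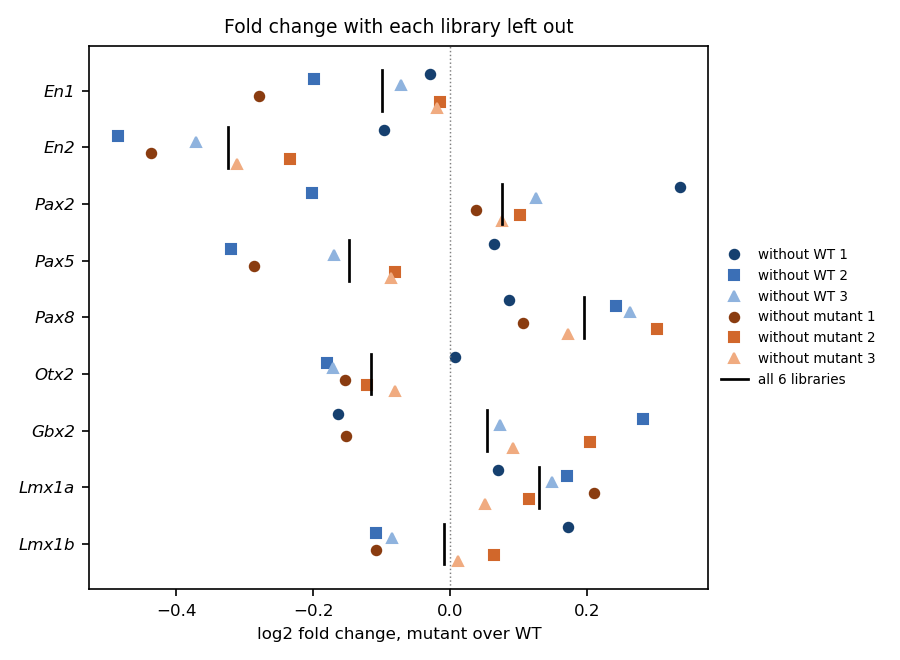
Log2 fold change of mutant over WT (x axis) for each of the 9 genes with all 6 libraries (black bar) and with each library left out in turn (points). Points lie on both sides of 0 for *Pax2*, *Pax5*, *Otx2*, *Gbx2* and *Lmx1b*, and on 1 side for *En1*, *En2*, *Pax8* and *Lmx1a*.

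The secreted signals of the isthmus gave 0 of 4 genes at an adjusted or unadjusted *P* under 0.05 in edgeR. Of all genes, 8.43% had an unadjusted *P* under 0.05 in this fit. Without WT 1 the signals gave 1 at an unadjusted *P* only, *Wnt1*, higher in mutants. Without WT 2 they gave 1 other, *Fgf17*, lower in mutants, again at an unadjusted *P* only. Leaving out any other library gave 0. In the fits with a library left out, 5.06% to 11.4% of all genes had an unadjusted *P* under 0.05. *Wnt1*, the midbrain signal, was at 10.4, 7.36 and 7.24 CPM in WT 1, 2 and 3 and at 12.6, 8.75 and 9.93 CPM in mutants 1, 2 and 3. Mutant 1 was highest, and WT 1 was above mutants 2 and 3. The log2 fold change was 0.32 ± 0.18 (SE, 95% interval -0.10 to 0.74, adjusted *P* = 0.675). *Wnt1* is also the gene whose regulatory sequence drives the Cre transgene of the mutants.

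*Fgf8*, the organizing signal of the isthmus, was at 12.1, 10.3 and 9.35 CPM in WT 1, 2 and 3 and at 10.5, 8.31 and 10.9 CPM in mutants 1, 2 and 3. Its log2 fold change was -0.10 ± 0.13 (SE, adjusted *P* = 0.870). The related *Fgf17* was at 13.6, 5.16 and 9.27 CPM in WT and at 7.20, 6.26 and 6.56 CPM in mutants, in library order. All mutant values of *Fgf17* lay inside the WT range, whose ends were WT 1 and WT 2, and its log2 fold change was -0.47 ± 0.34 (SE, adjusted *P* = 0.741). Without WT 1 it was -0.10 and without WT 2 it was -0.78. *Fgf18*, with the fewest counts of the 4 (64 to 146 per library), had a log2 fold change of -0.19 ± 0.25 (SE, adjusted *P* = 0.868).

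In the 15 genes that respond to or carry FGF signals, 0 passed the adjusted *P*, and 3 had an unadjusted *P* under 0.05, where 8.43% of all genes did. *Spry2*, a feedback inhibitor, was at 58.1, 64.8 and 64.1 CPM in WT and at 74.0, 67.7 and 69.0 CPM in mutants, in library order. The mutant values began above the WT range, and the log2 fold change was 0.17 ± 0.06 (SE, unadjusted *P* = 0.0163, adjusted *P* = 0.468). *Etv4*, an Ets-domain effector, had a log2 fold change of 0.27 ± 0.11 (SE, adjusted *P* = 0.554), also with no overlap. The groups did not overlap for 15.2% of all genes. *Fgfr3*, a receptor, was at 40.2, 32.1 and 30.3 CPM in WT and at 27.7, 28.8 and 28.2 CPM in mutants. Its mutant values all lay below the WT range, with a log2 fold change of -0.27 ± 0.10 (SE, adjusted *P* = 0.501). The fitted change was above 0 for 7 and below 0 for 8 of the 15 genes, with a median of -0.00. Without WT 1 the split was 10 above and 5 below 0 and *Fgfr3* alone had an unadjusted *P* under 0.05 in edgeR. With scaling to *Sox1*, *Sox2* and *Sox3*, where 84.8% of all genes tested had a fitted change above 0, it was 13 above and 2 below 0. *Spred1*, with the highest mean CPM of the list (not per length), had a log2 fold change of 0.11 ± 0.06.

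Of 20 other transcription factors of the midbrain and hindbrain, 0 passed the adjusted *P*, and 4 had a fitted change above 0 and 16 below 0, with a median log2 fold change of -0.14. *Dmbx1*, a homeobox gene of the midbrain and diencephalon, was the only one with an unadjusted *P* under 0.05. It was at 13.9, 8.51 and 13.6 CPM in WT 1, 2 and 3 and at 7.93, 8.76 and 6.41 CPM in mutants 1, 2 and 3. WT 1 and WT 3 stood above all mutants and WT 2 lay among them. The log2 fold change was -0.63 ± 0.21 (SE, unadjusted *P* = 0.0190, edgeR adjusted *P* = 0.484, DESeq2 adjusted *P* = 0.0785). *Meis2*, with the highest mean CPM of the 20 (not per length), had a log2 fold change of 0.00 ± 0.06. Without WT 1 the split was 5 above and 15 below 0, with a median of -0.07. No gene then had an unadjusted *P* under 0.05. When the libraries were scaled to the neural genes *Sox1*, *Sox2* and *Sox3* the split became 9 above and 11 below 0. Of all genes tested, 84.8% were then above 0. The median of the list was -0.03 under this scaling, beside 0.12 for all genes.

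Guidance and related genes listed for their links to the Engrailed and Pax2 proteins, 12 in all, had 1 fitted change above and 11 below 0, with a median log2 fold change of -0.07 and 0 genes at an unadjusted *P* under 0.05. *Pcdh10*, a protocadherin, had the lowest unadjusted *P* with a log2 fold change of -0.21 ± 0.13 (SE, adjusted *P* = 0.687). Without WT 1 the split became 7 above and 5 below 0 with a median of 0.03. With scaling to the *Sox* genes it was 8 above and 4 below 0 with a median of 0.05. Under that scaling 84.8% of all genes were above 0, with a median of 0.12. *Epha4*, with the highest mean CPM (not per length), had 0.10 ± 0.06. *Cnpy1* is counted both here and among the genes of the FGF response.

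In the midline and flanking territories in which the 9 genes act or border, no gene passed the adjusted *P* either. The 12 genes of the ventral midbrain and floor plate gave 3 changes above and 9 below 0, the 10 roof plate genes 1 above and 9 below, and the 13 forebrain genes 4 above and 9 below. Their median log2 fold changes were -0.12, -0.21 and -0.13. *Rspo3*, a Wnt agonist of the roof plate, was highest in WT 1. It was at 7.66, 2.61 and 4.41 CPM in WT and at 2.56, 2.72 and 2.69 CPM in mutants, in library order, with a log2 fold change of -0.86 ± 0.37 (SE, adjusted *P* = 0.602). *Shh*, with the highest mean CPM of the ventral list, was even over the libraries, with a log2 fold change of -0.09 ± 0.08. Without WT 1 the medians of the 3 lists were -0.07, -0.06 and -0.01. The splits were then 3 above and 9 below 0, 2 and 8, and 6 and 7, beside 49.0% of all genes above 0. With scaling to the *Sox* genes the lists had 6 of 12, 3 of 10 and 8 of 13 changes above 0, beside 84.8% of all genes. The list medians were then -0.01, -0.08 and 0.01, beside 0.12 for all genes.

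Among the forebrain genes, *Hesx1* had the lowest unadjusted *P* (log2 fold change 0.29 ± 0.14, SE, adjusted *P* = 0.631), while *Lhx2*, with the highest mean CPM, had -0.07 ± 0.21. *Bmp7*, with the highest mean CPM of the roof plate list, had 0.01 ± 0.07.

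The hindbrain list lay on the other side of 0. Of its 10 tested genes 8 had a change above and 2 below 0, with a median log2 fold change of 0.29 that was 0.03 without WT 1. *Fgf3*, a signal of the hindbrain next to the otic vesicle, was at 3.24, 4.73 and 3.70 CPM in WT and at 6.68, 4.74 and 5.07 CPM in mutants, in library order. Mutant 2 lay only just above WT 2, so the groups were narrowly apart, as they were apart for 15.2% of all genes. The log2 fold change was 0.48 ± 0.18 (SE, edgeR unadjusted *P* = 0.0264, adjusted *P* = 0.515). *Hoxb2*, with the highest mean CPM of the list over the 6 libraries (not per length), had 0.31 ± 0.38, with 5.00 CPM in WT 1 and between 10.2 and 14.5 CPM in the other 5 libraries.

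The profile of each of the 9 genes over the 6 libraries was also compared with that of all tested genes, by the root mean square difference of log2 CPM after centring. The nearest profile to *En2* after *Zfp385a* (0.07) was that of the neural progenitor gene *Sox3* (0.08 log2 units). *Lmx1a* was nearest to *Nr4a2* (0.03), a gene of dopaminergic neurons in the ventral midbrain list, followed by 9930014A18Rik (0.04). For *Pax2* the nearest were *Disp2* (0.07) and *Lhx9* (0.09), and for *Otx2* they were *Paqr7* (0.02) and *Cdh4* (0.03). The nearest to *En1* were *Slc24a3* (0.03) and *Tbc1d17* (0.07), to *Pax5* *Nrxn2* and *Slc44a5* (both 0.05), and to *Pax8* *Ybx2* (0.04) and *Mir5133* (0.05). *Pmp22* (0.07) and *Adora1* (0.08) were nearest to *Gbx2*, and *Dpp6* and *Lingo3* (both 0.05) to *Lmx1b*. With 6 points per profile and 15584 candidates, such likeness is a description of these libraries.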

How the data were processed

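RNA of 6 pools of 2 heads was sequenced with paired reads from stranded, ribosomal RNA-depleted libraries. Reads were aligned by the authors to mm10 (STAR, Gencode M2 annotation), and the deposited values are raw counts per gene symbol, whole numbers without normalization. The paper names CutAdapt and HTSeq for trimming and counting, while the labels name Trim Galore and featureCounts. Groups follow the genotype labels. No library was a copy of another, since depth-scaled counts differed by a chi-square of 10.2 to 28.3 per degree of freedom for every pair.

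The test of mutant against WT was two-sided, by edgeR (version 4.0.16) in R (version 4.3.3), with TMM factors, filterByExpr, robust quasi-likelihood dispersions and no covariate. The filter left out 8837 of 24421 genes, and *P* was adjusted with the Benjamini-Hochberg method over the genes kept. Intervals of 95% use the test's degrees of freedom and cover the spread between pools. CPM are TMM-normalized. Gene positions (mm10) and exon lengths come from Gencode M21, a later annotation than the authors used. In windows of 100 bases, none of the 9 genes shared exon sequence with a paralog. *Pax5*, *Pax8*, *Otx2* and *Gbx2* shared 5.64%, 2.74%, 1.56% and 40.8% of these windows with genes that overlap them, mostly on the other strand, and the other 5 genes shared none. Log2 CPM of single libraries have a prior count of 2.

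The 9 genes and the gene lists were chosen with earlier results of these data known. Genes named from a list are those with an unadjusted *P* under 0.05 or, where none, the lowest *P*, plus the one with the highest mean CPM, and for each of the 9 genes the 2 nearest profiles. Some list genes that this rule names are not reported here. Alternatives were DESeq2 (version 1.42.0), its size factors, plain library size, scaling to *Sox1*, *Sox2* and *Sox3*, no filter, a minimum of 10 counts in each library, a block for the replicate number, a Y-linked covariate, and leaving out each library. The fits were tested on simulated counts. Figures were drawn with matplotlib.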

Additional observations from a re-analysis of the deposited data

How the results depend on the processing

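In each of the 14 alternatives 0 of the 9 boundary genes passed an adjusted *P* of 0.05, while the count over all genes, 1 in the reported fit, was 84 with DESeq2, 84 with scaling to *Sox1*, *Sox2* and *Sox3*, 11 without a filter, 6 without WT 1, 5 without mutant 1 and 0 or 1 otherwise. The lowest adjusted *P* of a boundary gene was 0.346. At an unadjusted *P* under 0.05, where the reported count is 0, scaling to the *Sox* genes gave 1 (*Pax8*), beside 8.07% of all genes. The replicate block gave 1 (*En2*, log2 fold change -0.30, edgeR unadjusted *P* = 0.00377, adjusted *P* = 0.346), beside 8.53%. With a library left out this count lay between 0 and 2, beside 5.06% to 11.4% of all genes. The count of genes whose groups do not overlap, reported as 0, was also between 0 and 2 with a library left out. Its share over all genes was not computed for these fits. The cause was not tested.

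Scaling to the *Sox* genes moved the median log2 fold change of all genes to 0.12. The median of the 9 genes was then 0.12, a difference of 0.00 from all genes. Under this scaling *En1* (0.0186), *Otx2* (0.0131), *Lmx1b* (0.121) and *Fgf8* (0.0243) turned positive. Of these 4, all but *Lmx1b* were below the median of all genes. *Lmx1b*, reported at -0.01, was also at 0.00221 with library size and at 0.00550 with the block.

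With a library left out, log2 fold changes that turned ranged from -0.20 to 0.34 for *Pax2*, -0.32 to 0.0638 for *Pax5*, -0.18 to 0.00777 for *Otx2*, -0.16 to 0.28 for *Gbx2*, -0.11 to 0.17 for *Lmx1b*, -0.18 to 0.0140 for *Fgf8* and -0.36 to 0.12 for *Fgf18*. *En2*, *Pax8*, *Lmx1a*, *Fgf17* and *Wnt1* had the same sign in all 14 alternatives. The median of the 9 genes lay between -0.18 and 0.06.

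Whether the replicate numbers pair the samples was not settled. Same-numbered libraries correlated at 0.17, 0.03 and 0.36 in their departures from the group means, and the other pairs at between -0.25 and 0.09. WT 2 correlated best with mutant 1 (0.04), by a narrow margin. With the block the SE of *En2* was 0.07, beside 0.22 in the reported fit. With the block 1 gene in all passed the adjusted *P*. For the other gene lists, the *Sox* scaling and the values without WT 1 were chosen after the data were seen.

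Depth limits *Pax2* most (55 counts in WT 2). The widest 95% intervals ran from 34.5% lower to 64.5% higher for *Gbx2* and from 29.7% lower to 57.9% higher for *Pax2*.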

Other observations

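The 4 Y-linked genes summed to 98.8, 120 and 62.8 CPM in WT 1, 2 and 3 and to 173, 228 and 111 CPM in mutants 1, 2 and 3. *Xist* was at 0.37 CPM in mutant 2 and between 65.0 and 155 CPM in the other 5 libraries. With the Y-linked level as a covariate, 0 of the 9 boundary genes passed an adjusted *P* of 0.05 in edgeR. Of all genes tested 0 passed too, so this count does not tell the 9 from the rest. The SE of *Pax2* was 0.39 with the covariate, beside 0.26 in the reported fit.

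Visceral endoderm genes (*Ttr*, *Afp* and *Apoa1*) summed to 9.28 CPM in WT 1 and to between 0.526 and 1.97 CPM in the other libraries, and erythroid genes to 1009 CPM in WT 1 and to between 659 and 887 CPM in the others. Neural crest markers summed to 230 CPM in WT 1 and to between 263 and 302 CPM in the others, with 5 of 6 fitted changes above 0 and a median log2 fold change of 0.07. For the 5 neural progenitor genes all fitted changes were below 0, with a median of -0.21 and 0 genes at an unadjusted *P* under 0.05 in edgeR.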
